A study of Mus musculus with 3 samples.

Results

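Glycosyltransferases and glycan-modifying enzymes of kidney macrophages were taken as the genes whose symbol begins with one of the family names St3gal, St6gal, St8sia, B3g, B4gal, Galnt, Mgat, Fut, Man1, Man2, Chst, Hs2st, Hs3st, Hs6st, Ndst, Neu, Ext, Alg or Gcnt. This rule used names alone and no measured value. It found 100 of the 14811 genes listed in the table. Of these, 99 are enzyme genes and 1, Man2c1os, is an antisense transcript of Man2c1.

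RNA-seq was done on macrophages that had been sorted by flow cytometry from kidneys of C57BL6/J mice, with 3 libraries, 1 per mouse. Every mouse had received phosphate-buffered saline (PBS) intravenously 1 h before the kidneys were taken, so there was a single group and no contrast between conditions. The tissue had been digested by enzymes for 30 min, and the cDNA was amplified by the SMART-seq V4 chemistry, made for low RNA input. The labels name no allele, and neither sex nor age is given in them.

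Glycans are built in sequence along the secretory pathway. The Alg enzymes assemble a lipid-linked sugar chain at the endoplasmic reticulum, which is moved onto proteins, trimmed by mannosidases and then branched by the Mgat enzymes in the Golgi. Other enzymes start chains on serine and threonine (Galnt), extend them with galactose and N-acetylglucosamine (B4galt, B3gnt), cap them with sialic acid or fucose, or build and sulfate the long chains of proteoglycans (Ext, Ndst, Hs and Chst families). On macrophages such chains are the ligands of Siglecs, galectins and selectins.

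Levels are normalised read counts, that is, reads divided by the authors' size factor of each library after removal of an added 1. The libraries held 50646558 to 56718534 reads over the listed genes, and 1 read was worth 0.806, 0.555 and 0.705 normalised reads in mice 1, 2 and 3. Where no read was counted, up to 2.42, 1.66 and 2.11 normalised reads remain possible (3 reads, counting error only). Of the 10 macrophage markers, 9 reached 1000 in every mouse, the exception being Itgam, and their summed level was 373118 to 525380.0. The 7 proximal tubule markers summed to 42228 in mouse 1, 200055 in mouse 2 and 17512 in mouse 3, with none at 0 in every mouse, and the 5 distal nephron markers to 5876 in mouse 2 and 1140.4 or less in both others. Kap, a gene of proximal tubule cells, made up most of the tubule sum, at 35490.3, 172061 and 13511. The 8 endothelial markers summed to 549, 135 and 1396, with Kdr at 453, 7.77 and 1345 and Tek at 0 in every mouse. The 6 dendritic cell markers summed to 3959.8, 1333 and 1885. Most of this sum was Clec9a, at 3421, 1330.3 and 1462 and so at 1000 or more in every mouse. Xcr1 was at 534, 2.77 and 407, and Cd209a and Ccr7 were at 0 in every mouse. The 5 listed fibroblast and mesangial markers summed to 952, 129.9 and 194. The 2 listed neutrophil markers summed to at most 19.4 and the 3 listed T and NK cell markers to at most 113. Cd79b, the 1 listed B cell marker, was at 227, 3939.8 and 6359. The part of other cells in the levels below was not tested. In sorted cells measured in bulk, fewer cells that use a gene and less RNA per cell cannot be told apart.

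As a set, the glycan genes took 0.371%, 0.296% and 0.401% of the reads in mice 1, 2 and 3 (mean 0.356% ± 0.0541, SD, n = 3). The 3 with the highest mean count over mice, St3gal6, Man1a and St8sia4, held 44.0%, 31.1% and 43.0% of that sum, although in mouse 2 B3galnt1 (7983) was above Man1a (6882) and Gcnt1 (6533) above St8sia4 (3848). Of the 100 glycan genes, 42 reached 10 normalised reads in every mouse (42.0%), where the share over all listed genes was 44.4%. A level of 1000 or more in every mouse was reached by 10 glycan genes (10.0%), against 14.7% of all listed genes. In all, 76 were above 0 in every mouse, against 71.0% of all listed genes. The median of the mean log2(value + 1) was 5.98 over the glycan genes and 5.98 over all listed genes. By number and median level the families were thus near the background of the table, with single members far above it.

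Members at 0 in every mouse numbered 5 of 100, against 6.59% of all listed genes. They were Gcnt4, B3gnt3, B3gnt7, the sialidase Neu2 and Ndst3. Over the other 2 mice the count at 0 was 11 without mouse 1 and 8 without mouse 2. With fewer mice this count can only stay the same or rise. St6galnac6 and Chst2 stayed at 3 reads or fewer in every mouse, which brought that count to 7, against 10.7% of all listed genes. St6galnac6 had 1, 3 and 1 reads in mice 1, 2 and 3, and Chst2 had 3 reads in mouse 1 alone. At this depth the other 5 had no read, and these 2 were near the limit of counting.

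**Figure D1:**
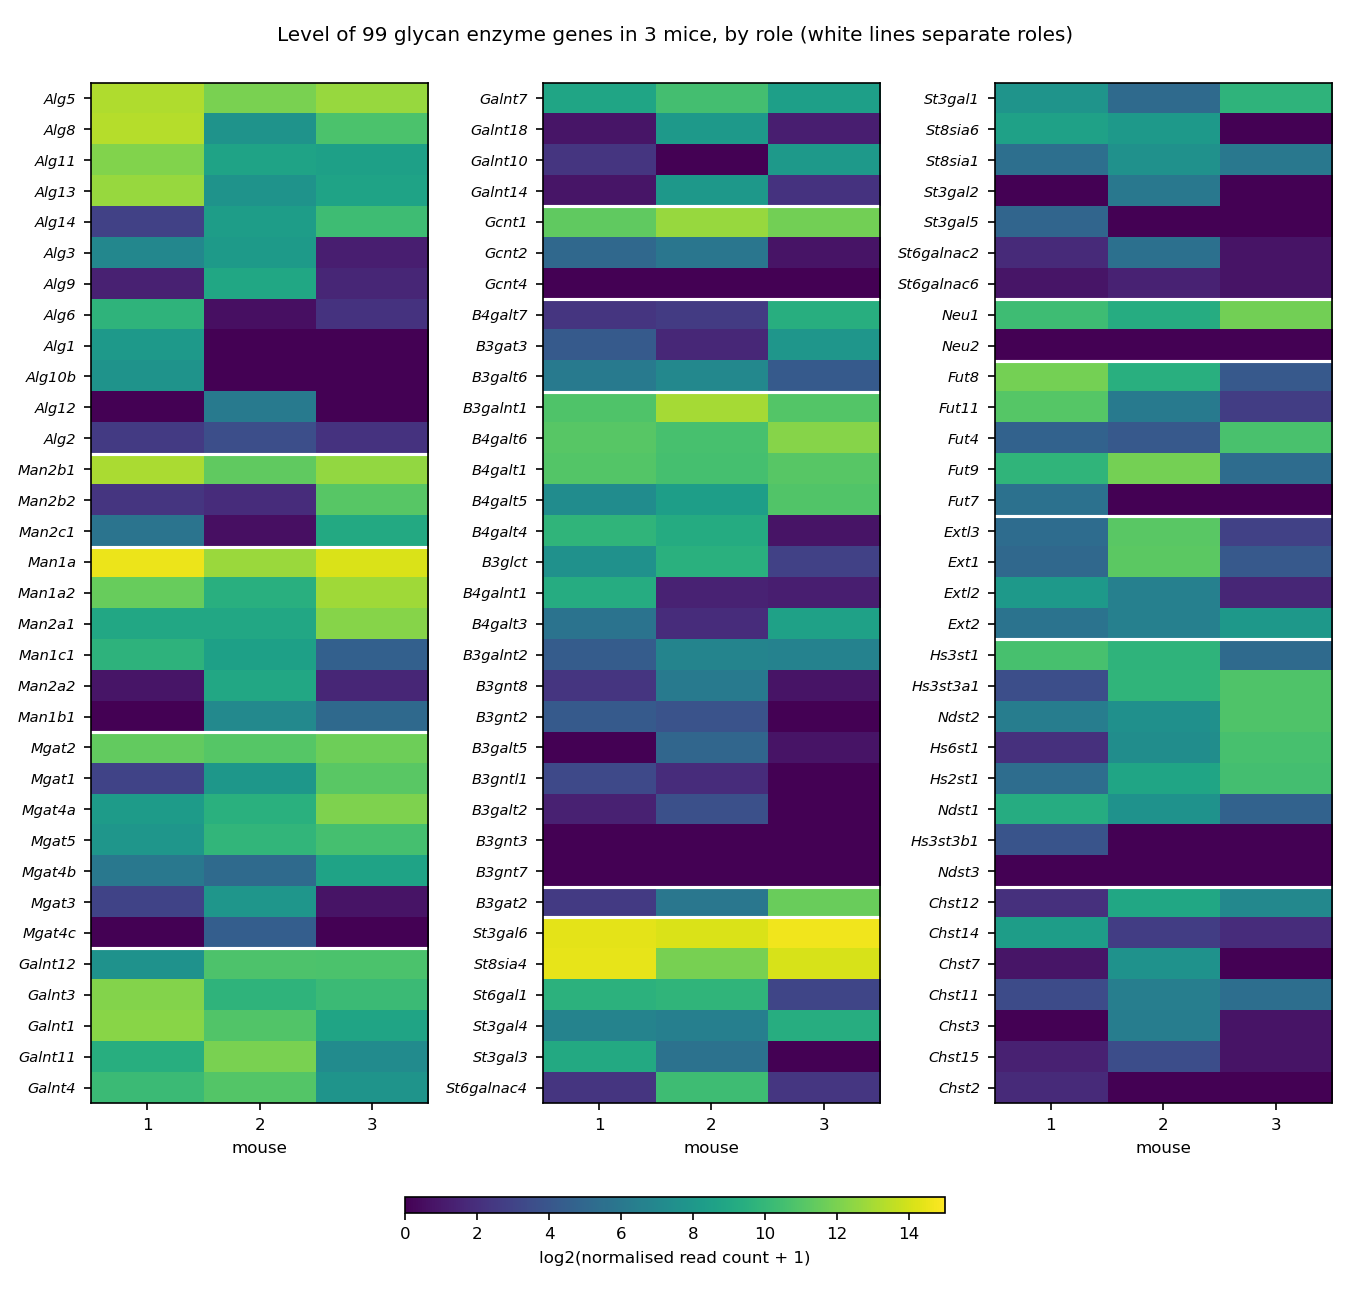
Level of each of the 99 enzyme genes in mice 1, 2 and 3, as log2(normalised read count + 1) on a colour scale of 0 to 15, read down the columns by role and, within a role, from high to low level per kb of exon. St3gal6, Man1a and St8sia4 are bright in all 3 mice, while most other rows change colour between mice.

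The 10 enzymes at 1000 or more in every mouse came from 7 of the 15 roles. In order of level per kb of exon they were St3gal6, B3galnt1, Alg5, Man1a, Mgat2, Gcnt1, Man2b1, St8sia4, B4galt6 and B4galt1. Per kb of exon, St3gal6 averaged 3543 ± 665 normalised reads and B4galt1 452 ± 89.1 (SD, n = 3 each). Every neighbouring pair in this order overlapped over the 3 mice, so no step in it is beyond the spread between mice. With the longest transcript in place of all exons, only St3gal6, Alg5, B4galt6 and B4galt1 kept their places. Man1a moved to place 2, B3galnt1 to 4, Man2b1 to 5, St8sia4 to 6, Mgat2 to 7 and Gcnt1 to 8. Man2b1 then averaged 1519 in place of 723 normalised reads per kb, St8sia4 1428 in place of 713 and Man1a 3177 in place of 1692.

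**Figure D2:**
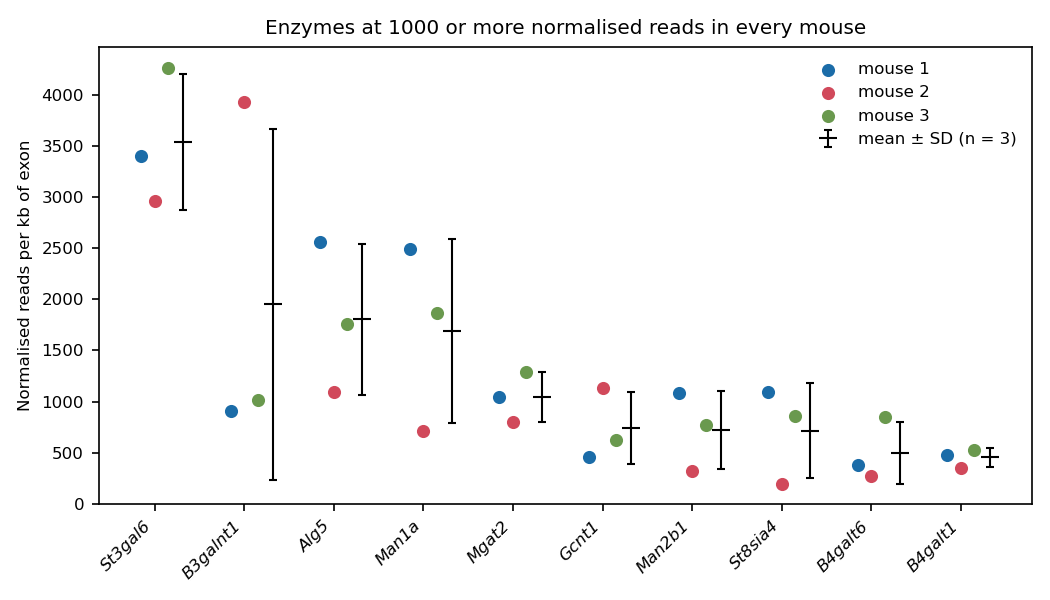
Normalised reads per kb of exon in each mouse (coloured points) with mean ± SD over 3 mice (black) for the 10 enzymes at 1000 or more normalised reads in every mouse. St3gal6 lies between 2961 and 4267, and B3galnt1 has 1 high point, mouse 2 at 3936.

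St3gal6 adds sialic acid to terminal galactose of N-acetyllactosamine. It was at 20992, 18276 and 26338 normalised reads in mice 1, 2 and 3, a span of 1.44-fold on the value + 1 scale. Its exons overlap those of Dcbld2 on the opposite strand over 26.0% of their length. B4galt1, a galactosyltransferase that makes N-acetyllactosamine, was at 2022, 1496 and 2228 normalised reads, a span of 1.49-fold. Mgat2, which starts the second branch of complex N-glycans, was at 2722, 2088 and 3359, a span of 1.61-fold. These were the 3 steadiest of the 10, with all 3 mice close together in each case.

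The bases before the annotated starts of these 3 genes are shown because they were the high members that varied least between mice. They are the 250 bases upstream of the RefSeq start on GRCm38.p6, read 5′ to 3′ on the gene's strand, with each GC box (GGGCGG or its complement CCGCCC) in capitals. For St3gal6 the start printed is the one whose downstream bases were found in a GENCODE M21 transcript of the gene. The windows are chr16:58523427-58523676 (minus strand) for St3gal6, chr4:40853985-40854234 (minus strand) for B4galt1 and chr12:69183908-69184157 (plus strand) for Mgat2.
St3gal6: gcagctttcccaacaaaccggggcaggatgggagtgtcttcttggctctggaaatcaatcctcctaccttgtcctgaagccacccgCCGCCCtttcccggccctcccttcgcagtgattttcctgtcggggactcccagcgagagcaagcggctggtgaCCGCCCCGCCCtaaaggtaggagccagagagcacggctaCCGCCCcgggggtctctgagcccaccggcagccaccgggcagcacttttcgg
B4galt1: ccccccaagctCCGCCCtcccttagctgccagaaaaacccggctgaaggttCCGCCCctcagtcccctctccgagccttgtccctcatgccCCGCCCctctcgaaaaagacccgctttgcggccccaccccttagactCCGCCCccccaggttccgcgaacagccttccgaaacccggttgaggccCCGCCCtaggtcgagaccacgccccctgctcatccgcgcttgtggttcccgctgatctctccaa
Mgat2: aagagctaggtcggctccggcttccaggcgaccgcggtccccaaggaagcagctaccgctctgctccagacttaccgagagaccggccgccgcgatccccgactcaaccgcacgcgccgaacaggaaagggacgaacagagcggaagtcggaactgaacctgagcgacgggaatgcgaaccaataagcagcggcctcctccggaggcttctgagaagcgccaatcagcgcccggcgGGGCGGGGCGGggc

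The St3gal6 window held 4 GC boxes and 16 CpG, the B4galt1 window 5 and 19, and the Mgat2 window 2 and 30. The window of the other St3gal6 start, which is not printed, held 0 GC boxes and 1 CpG. Of the 100 glycan genes, 79 matched the promoter table by symbol, with 105 windows. A GC box on either strand was found in 55.2% of these windows, against 32.7% of all 32851 windows in the promoter table. The median window held 14 CpG, against 6. The promoter table covers 27025 genes and was not limited to the genes with counts here, so this background differs from that of the counts. The CCAAT box (CCAAT) was found in 38.1%, against 33.8%, the TATA box (TATAAA) in 4.76%, against 12.4%, the E-box (CACGTG) in 6.67%, against 6.02%, and GAGGAA, a core bound by ETS factors, in 22.9%, against 23.3%. Motifs were counted separately, so matches may share bases. These are letters in a window and were not tested as binding sites.

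Assembly of the lipid-linked precursor was represented by 12 Alg genes, of which 4 were at 10 or more in every mouse. Alg5, which makes the glucose donor dolichyl-phosphate glucose, was highest and was at 9557, 4070.2 and 6548 normalised reads in mice 1, 2 and 3. Alg8, which adds a glucose to the precursor, was at 10172, 208 and 1736, and the mannosyltransferase Alg11 was at 4498, 410.1 and 373. Alg13 and Alg14 form the enzyme that adds the second N-acetylglucosamine. Alg13 was at 6609, 205 and 410.2 normalised reads, while Alg14 was at 6.45, 322 and 1293, so the partners were ordered oppositely in mice 1 and 3. Alg6, the glucosyltransferase that acts before Alg8, was at 869 in mouse 1 and at 0.555 and 3.52 in mice 2 and 3. Alg1 (260.5) and Alg10b (206) were above 0 in mouse 1 alone, Alg12 (67.7) in mouse 2 alone, and Alg9 was at 1.61, 498 and 2.11. Each of these 5 was at 3.52 or less in 2 of the 3 mice. Alg3 was at 123, 283 and 1.41, and Alg2 did not exceed 11.1 in any mouse. Summed per kb of exon, the Alg genes were at 8396, 1736 and 3035 normalised reads, highest in mouse 1.

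Mannosidases trim the chain after transfer. Man1a, which removes mannose in the Golgi, was at 24059, 6882 and 18021 normalised reads, lowest in mouse 2. Its relative Man1a2 was at 2966, 693 and 7534, and Man1c1 at 833, 364 and 23.3. The endoplasmic reticulum mannosidase Man1b1 was at 0, 135 and 34.5. Man2a1, which removes the mannoses that follow the action of Mgat1, was at 512, 506 and 4891, and its paralogue Man2a2 was at 0.806, 518 and 2.11. Both paralogues were therefore at a similar count in mouse 2, while Man2a1 was by far the higher in mice 1 and 3. The lysosomal mannosidase Man2b1 was at 8665, 2576 and 6177, again lowest in mouse 2. Man2b2 was at 4.03, 2.77 and 2210.3 and the cytosolic Man2c1 at 53.2, 0.555 and 559, both highest in mouse 3. The antisense transcript Man2c1os was at 1.61, 219 and 88.1 normalised reads and shares 6.54% of the exon length of Man2c1. The use of strand in counting is not given in the sources used here, and in that shared stretch the source of a read is uncertain.

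N-glycan branching genes numbered 7, of which 4 were at 10 or more in every mouse. Beside the steady Mgat2, Mgat1, which starts the first branch and acts before Mgat2, was at 7.26, 241 and 2267 normalised reads. Mgat1 was thus low in mouse 1, where Mgat2 was at 2722. Mgat4a was at 296, 727 and 4439.6 and Mgat5, which makes the branch bound best by galectins, at 236, 929.6 and 1529. Both, like Mgat1, were lowest in mouse 1 and highest in mouse 3. Mgat4b was at 63.7, 35.5 and 407. Mgat3, which adds the bisecting N-acetylglucosamine, was at 7.26, 231 and 0.705, and Mgat4c was at 21.1 in mouse 2 and at 0 in both others.

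Initiation of O-glycans is shared among many Galnt enzymes, and all 9 listed had a mean of 10 or more, with 6 at 10 or more in every mouse. The median log2 level of this role was the highest of the 15, at 9.53, though no Galnt gene reached 1000 in every mouse. Galnt12 was at 199, 1796 and 1756 normalised reads, Galnt3 at 4793, 848 and 1212, and Galnt1 at 5216, 1931 and 431. Per kb of exon these 3 averaged 546 ± 398, 522 ± 498 and 458 ± 443 (SD, n = 3), which do not differ beyond their spread. Galnt11 (679, 4003 and 147) and Galnt4 (1202, 1996 and 218) were highest in mouse 2. Galnt4 shares 8.25% of its exon length with Poc1b on the same strand, so its count is uncertain to that extent. Galnt7 ranged from 355 to 1444. Galnt18 and Galnt14 were above 3.52 in mouse 2 alone (260.3 and 250.3), and Galnt10 was above 4.03 in mouse 3 alone (266).

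Gcnt1, which makes the core 2 branch of O-glycans, was at 2615, 6533 and 3597 normalised reads and so at 1000 or more in every mouse. Gcnt2, the branching enzyme of the I blood group antigen, was at 32.3, 58.8 and 0.705.

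Chain extension had 16 members, of which 5 were at 10 or more in every mouse. B3galnt1, the globoside synthase, was at 1840.4, 7983 and 2060.2 normalised reads, highest in mouse 2. B4galt6 and B4galt5 both make lactosylceramide. B4galt6 was at 2172, 1587 and 4901, and B4galt5 at 156, 340.2 and 1928. B4galt4 was at 904, 609 and 0.705, B3glct at 193, 732 and 6.34, and B4galnt1, which makes the ganglioside GM2, at 631, 1.66 and 1.41. All 3 were at 6.34 or less in mouse 3. B4galt3 was highest in mouse 3 at 379, and B3galnt2 was at 19.4, 109 and 101. B3gnt2, a main extender of polylactosamine, was at 17.7, 13.3 and 0 normalised reads. It shares 58.6% of its exon length with Gm28048 on the same strand, a gene not among those listed. The count of B3gnt2 is uncertain to that extent, so these low values may not give its level. B3gnt8 reached 70.5 and B3galt5 30.5, both in mouse 2, while B3gntl1 and B3galt2 did not exceed 11.7.

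**Figure D3:**
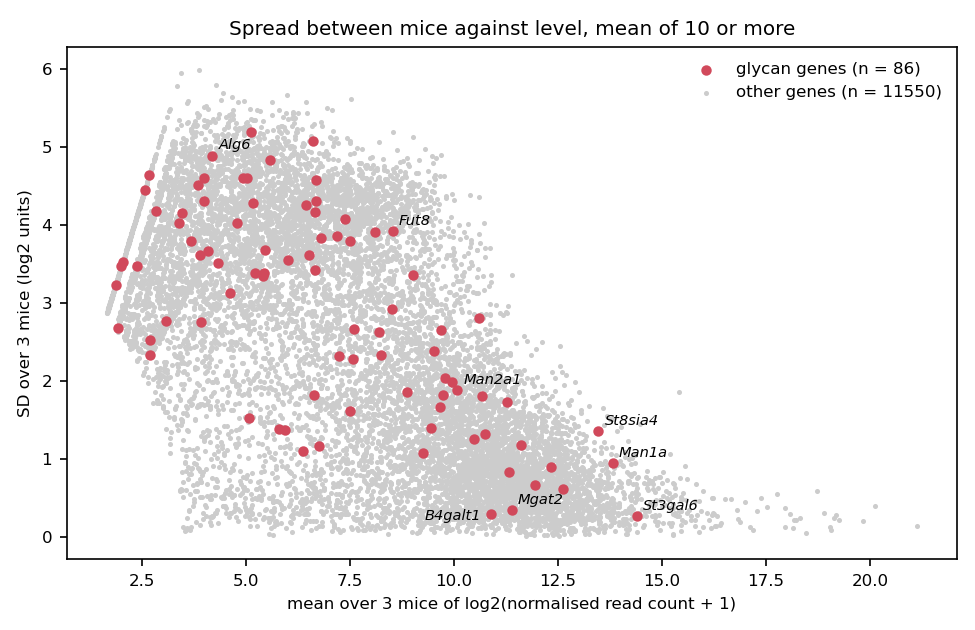
SD over 3 mice in log2 units against the mean of log2(normalised read count + 1), for the 86 glycan genes (red) and the 11550 other genes (grey) with a mean of 10 or more. St3gal6, B4galt1 and Mgat2 have SDs of 0.27, 0.30 and 0.34, and most red points below a level of about 10 log2 units lie above an SD of 1.

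Sialyltransferases were led by 2 genes. St8sia4, which builds polysialic acid, was at 21919, 3848 and 17183 normalised reads, lowest in mouse 2. St8sia1, which makes the ganglioside GD3, was at 44.4, 193 and 62.7, and St8sia6 at 385, 276 and 0. The other sialyltransferases were far below St3gal6 in every mouse. St6gal1, which caps N-acetyllactosamine in the linkage read by the B cell Siglec CD22, was at 781, 886 and 7.75. St3gal4, which caps the same acceptor in the linkage made by St3gal6, was at 102, 87.1 and 660.4. St3gal1, which caps core 1 O-glycans, was at 215, 35.5 and 854. St3gal4 and St3gal1 were highest in mouse 3, where St6gal1 was lowest. St3gal3 was at 551, 49.4 and 0, and St6galnac4 at 4.03, 1274 and 4.23. St3gal2 was above 0 in mouse 2 alone (63.8), and St3gal5, which makes the ganglioside GM3, in mouse 1 alone (28.2). St6galnac2 reached 46.1 in mouse 2. Summed per kb of exon, the 13 sialyltransferases were at 4983, 3659.8 and 5482 normalised reads.

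The lysosomal sialidase Neu1, which removes sialic acid, was at 1303, 630.5 and 3596 normalised reads. It was above every sialyltransferase other than St3gal6 and St8sia4 in mice 1 and 3, but below St6gal1 and St6galnac4 in mouse 2.

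Of the 5 fucosyltransferases, 3 reached 10 in every mouse and none reached 1000. Fut8, which adds fucose to the core of N-glycans, was at 3779.9, 710.4 and 17.6 normalised reads, and Fut11 at 2084, 71.6 and 5.64, both highest in mouse 1. Fut4, one of the enzymes of the Lewis x antigen, was at 25.0, 17.2 and 1644. Fut9, another of them, was at 903, 3765 and 38.8. Fut7, which completes sialyl Lewis x for selectins, was at 47.6 in mouse 1 and at 0 in mice 2 and 3. By count, not divided by length, the highest fucosyltransferase was Fut8 in mouse 1, Fut9 in mouse 2 and Fut4 in mouse 3, and per kb of exon Fut11 (490.1) and Fut8 (478) were close in mouse 1.

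Fut9 and Galnt11 are named because their order over the mice (2, then 1, then 3) was that of the summed proximal tubule markers, mostly Kap, a choice made after their values were seen. Of the 7 markers, 6 had this order, and Miox was at 2391, 7781 and 2940.5. That order was shared by 15 of the 86 glycan genes with a mean of 10 or more (17.4%), against 17.1% of all such genes. Among the 15 were also Ext1, Extl3, St6gal1 and B3glct. The part of tubule RNA in these levels was not tested.

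The tetrasaccharide linker that ties glycosaminoglycans to proteins needs B4galt7, B3galt6 and B3gat3 in turn. B4galt7 was at 4.03, 4.99 and 690.0 normalised reads, B3galt6 at 69.4, 125 and 18.3, and B3gat3 at 17.7, 2.22 and 238. B4galt7 and B3gat3 were thus highest in mouse 3, where B3galt6 was lowest. B3gat2, a glucuronyltransferase of the HNK-1 antigen, was at 4.84, 59.9 and 3089.9. Its exons overlap those of Smap1 on the opposite strand over 33.5% of their length.

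Heparan sulfate is polymerised by Ext1 and Ext2 acting as a complex. Ext1 was at 32.3, 2349.8 and 16.9 normalised reads, while Ext2 was at 51.6, 90.5 and 257. Extl3, which adds the first N-acetylglucosamine of the chain, was at 37.9, 2263 and 6.34, close to Ext1 in mouse 2 and low with it in both others. Extl2 was at 279.8, 92.1 and 2.11. Ext1 and Extl3 were high in the library with the highest tubule marker sum, whose part in them was not tested.

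Of the 8 genes that sulfate heparan chains, 5 were at 10 or more in every mouse. Hs3st1, which makes the antithrombin-binding sequence, was at 1596, 852 and 35.2 normalised reads. Hs3st3a1 was at 11.3, 909.6 and 1845, and 32.9% of its exon length overlaps a gene on the opposite strand that was itself at 0 in every mouse. The N-sulfotransferases Ndst1 and Ndst2 were at 629, 201 and 25.4 and at 82.3, 180.4 and 1861. Hs2st1 was at 39.5, 442 and 1436 and Hs6st1 at 3.23, 165 and 1571. Hs3st3a1, Ndst2, Hs2st1 and Hs6st1 were lowest in mouse 1 and highest in mouse 3, while Hs3st1 and Ndst1 ran the other way. Hs3st3b1 was above 0 in mouse 1 alone (13.7).

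Carbohydrate sulfotransferases were the lowest role with several members: none of the 7 was at 10 or more in every mouse, and their median log2 level was 2.83. Chst12 and Chst11, which sulfate chondroitin, were at 3.23, 493 and 129.7 and at 9.68, 83.8 and 41.6 normalised reads. Chst14, which sulfates dermatan, was at 328, 5.55 and 2.82. Chst7 (196) and Chst3 (81.6) exceeded 0.806 in mouse 2 alone, and Chst15 did not exceed 10.5.

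Spread between mice was wide in these genes. Of the 86 glycan genes with a mean of 10 or more, 78 were over 4 times higher in their highest mouse than in their lowest on the value + 1 scale (90.7%), against 73.4% of all such genes. The median SD over mice was 3.03 log2 units in the glycan genes and 2.55 in all genes at that mean. Spread falls with level, so the counts were also taken by level. At a mean of 1000 or more, 17 of 25 glycan genes passed 4-fold (68.0%), against 51.9% of all genes there. At a mean of 100 to under 1000 all 40 did, against 85.8%, and at 10 to under 100 all 21 did, against 88.8%. A mean can reach these bounds through 1 mouse alone, as for Alg1 (260.5, 0 and 0) and B3gat2 (4.84, 59.9 and 3089.9). Such genes pass 4-fold by the filter itself, and the same filter was used for all genes. With 1 mouse left out at a time the count of 78 came to 51 to 57, the lowest being without mouse 3. Over fewer mice the fold of a given gene can only stay the same or fall. The whole pattern was not tested against chance, as genes are not replicates.

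The 8 that stayed within 4-fold at a mean of 10 or more were Alg5, Man1a, Man2b1, Mgat2, Gcnt1, B4galt6, B4galt1 and St3gal6, all of them among the 10 high members. At the other end, 19 glycan genes were at 100 or more in 1 mouse and at 3 reads or fewer in another, against 15.1% of all listed genes. They included Alg6, Man2a2, St3gal3, St8sia6, B4galt4 and B4galnt1. The highest mouse was mouse 1 for 25, mouse 2 for 33 and mouse 3 for 28 of the 86, against 34.0%, 34.0% and 32.1% of all such genes.

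Ratios of 2 genes were taken within each library. The 22 enzyme pairs were chosen for acting on the same substrate, in the same complex or in sequence, or as members of 1 family. Man2b1/Man2c1, Fut8/Fut4 and St8sia4/St8sia1 are pairs of the last kind, so their ratios do not compare competing or successive steps. This choice was made with earlier results of these data known. Both genes were listed for 19 pairs, and 9 of these had 1 direction in all 3 mice. No such count was taken over other gene pairs, so the 9 have no background share. Ratios are log2 of value + 1 per kb of exon. An exact two-sided sign-flip permutation test over 3 mice cannot give a p below 0.25, so none of the pairs could pass 0.05. The count of 9 became 14 without mouse 1, and over fewer mice it can only stay the same or rise.

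Man1a exceeded Man1a2 by 2.25 ± 1.11 log2 units (SD, n = 3), with 2.74, 3.03 and 0.98 in mice 1, 2 and 3. St8sia4 exceeded St8sia1 by 6.00 ± 2.45, with 7.81, 3.20 and 6.97. B4galt1 exceeded B4galt5 by 2.04 ± 1.74, though mouse 3 was near parity at 0.23. Mgat5 exceeded Mgat3 in each mouse, by 3.70, 0.86 and 8.67, and so did Man2a1 over Man2a2, by 8.66, 0.48 and 11.13. In mouse 2 the counts of Man2a1 and Man2a2 were 506 and 518 normalised reads. The direction of this pair in mouse 2 thus rests on division by exon lengths of 7.22 and 10.3 kb. Man2b1 exceeded Man2c1 by 7.13, 10.51 and 3.28.

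St3gal1 was below Gcnt1, with which it competes for core 1 chains, at -3.85, -7.73 and -2.32 log2 units. Mgat1 was below Mgat2 at -9.22, -3.96 and -1.42. Alg6 was below Alg8 at -5.17, -8.69 and -10.20. Where the lower gene had 3 reads or fewer (Man2a2 in mice 1 and 3, Mgat3 in mouse 3, Man2c1 and Alg6 in mouse 2) the size of the ratio depends on the added 1.

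The other 10 pairs changed direction between mice. St6gal1 was above St3gal4 by 2.17 and 2.58 in mice 1 and 2 and at -6.99 in mouse 3. Fut8 was above Fut4 by 6.23 and 4.33 in mice 1 and 2 and at -7.42 in mouse 3. Ext1 was above Ext2 by 4.54 in mouse 2 alone, with -0.80 and -3.99 in mice 1 and 3. Ndst1 to Ndst2 stood at 2.05, -0.71 and -7.01, and Alg13 to Alg14 at 8.34, -2.10 and -3.11. B4galt7 to B3galt6 was at -3.67, -4.26 and 5.30. The remaining 4, Mgat4a/Mgat4b, Fut4/Fut7, Hs2st1/Hs6st1 and Chst11/Chst12, had means of 1.08, 3.87, 0.95 and -2.17 with 1 mouse each on the other side of 0. Fut7 had no read in mice 2 and 3, and the Fut4/Fut7 mean was 6.05 with 0.1 and 1.91 with 10 added in place of 1.

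**Figure D4:**
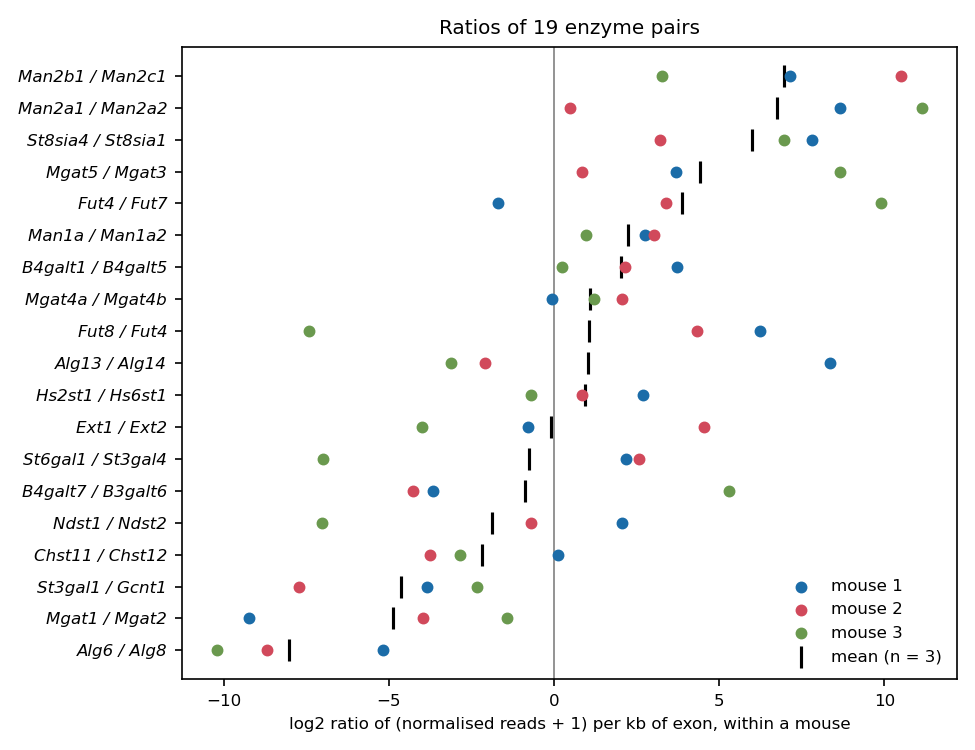
Log2 ratio of (normalised reads + 1) per kb of exon within each mouse (coloured points) and mean over 3 mice (black bar) for 19 enzyme pairs. For 9 pairs, such as Man1a/Man1a2 and Alg6/Alg8, all 3 points lie on 1 side of 0, and for 10 they do not.

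The same counts were taken over genes that act around these enzymes. Of 135 listed genes in 10 such lists, 79 reached 10 in every mouse (58.5%) and 30 reached 1000 (22.2%), where all listed genes were at 44.4% and 14.7%. The oligosaccharyltransferase, which moves the Alg-made chain to proteins, had 11 of 12 genes at 10 or more in every mouse, led per kb by Ost4 (12345 ± 3279.6 normalised reads) and Tmem258 (9869 ± 2198). Of the 21 genes that break glycans down in lysosomes, 14 reached 10 in every mouse and 7 reached 1000. In the list of core 1 and other O-glycosylation genes, 7 of 16 were at 10 or more in every mouse, with Ogt (34211 ± 15525), which adds single N-acetylglucosamines to cytosolic and nuclear proteins, and C1galt1c1 (4664 ± 2679), the chaperone of the core 1 enzyme, at the top.

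Genes that supply sugar donors varied between mice as well. Of 24 nucleotide sugar synthesis genes, 12 reached 10 in every mouse, with Ugp2 at 144, 4721 and 3149.8 normalised reads and Galt at 3983, 1224 and 168. Gne, which starts sialic acid synthesis and was named after its values were seen, was at 8.87, 15.5 and 0. St3gal6 was at 18276 or more in these libraries. Of the same pathway, Nans was at 2608, 504 and 12.7, Cmas at 696, 80.5 and 336 and Nanp at 0, 0 and 9.87. Slc35a1, which carries activated sialic acid into the Golgi, was at 24.2, 6764 and 1872, so it was low in mouse 1, where St3gal6 and St8sia4 were at 20992 and 21919. Of the 11 nucleotide sugar transporters, 7 reached 10 in every mouse and none reached 1000, and Slc35b1 (2727 ± 1619.5) followed Slc35a1 per kb.

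Among the precursor genes outside the Alg family, 5 of 11 were at 10 or more in every mouse, led per kb of exon by Dpm2 (5464 ± 395) and Dpm3 (1325 ± 238 normalised reads), subunits of the enzyme that makes the mannose donor. Of the glucosidase and folding cycle genes, 9 of 12 were, led per kb by the chaperones Canx (12782 ± 1406) and Calr (6887 ± 3468). Glycosaminoglycan assembly outside the families had 6 of 12, led per kb by Csgalnact2 (2650.1 ± 1148) and Dse (2079 ± 1315). Of the 3 glycolipid genes, Ugcg, which makes glucosylceramide, was at 12714 ± 5672 and Ugt8a, which makes galactosylceramide, at 5.65, 771 and 55.0. Proteoglycan and mucin-like carriers had 7 of 13, led per kb by Srgn (29497 ± 5871), the core protein of serglycin, and Selplg (3860.2 ± 3525), the P-selectin ligand. Selplg was at 7723, 818 and 3039.8 in mice 1, 2 and 3, while Fut7, which decorates it in neutrophils and lymphocytes, was above 0 in mouse 1 alone.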

How the data were processed

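The authors' deposited file holds a normalised signal for 14811 genes in 3 libraries. Per the submitters' processing notes, reads were counted with HTSeq 0.5.4 and scaled with DESeq 1.18.0 on build mm9. The sources used here give no aligner, annotation, use of strand or row filter. The lowest value is 1 in each library, and after subtraction of 1, 100% of values were whole multiples of 1 read (tolerance 0.05 of a read), so the added 1 was removed. Amplified reads carry no molecular identifiers, so floors cover counting error only.

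No test between groups was possible with 1 group, and no count model was fitted. Levels are means ± SD over 3 mice, the log2 pseudocount was 1, and counts are set beside the same count over all listed genes. Exon lengths and overlaps came from GENCODE M21 by gene identifier (99.6% of genes, all 100 glycan genes), which is on GRCm38. The notes name mm9, but the form of the gene identifiers and symbols leaves doubt about which annotation was counted, so no gene coordinates are given, and lengths and overlaps may differ from the authors'. Promoter windows are RefSeq's on GRCm38.p6. Step recovery was tested on simulated data. The families, roles, lists and pairs were chosen with earlier results of these data known. The rule named the 3 highest members per kb of each role with a mean of 10 or more, all members at 1000 or more in every mouse, the genes of the pairs, and the 2 highest genes per kb of each other list (those of the lysosomal list are not reported here); other genes were named after their values were seen. Python 3.11.15, numpy 2.4.6, pandas 2.3.3 and matplotlib 3.10.9 were used.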

Additional observations from a re-analysis of the deposited data

How the results depend on the processing

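The counts at 10, at 1000 and at 0 in every mouse stayed within 1.5 times the reported value with scaling by total reads and with other thresholds (2 times lower and higher for the first 2, and 3 reads for the third), and the first 2 also with the added 1 left in. So did the count past 4-fold with scaling by total reads, pseudocounts of 0.1 and 10 and no filter on low values, and the count of pairs of 1 direction with those pseudocounts and other lengths. A like count of pairs did not mean the same pairs. Without division by length, Man2a1 (506) was below Man2a2 (518) in mouse 2, while Mgat4a was above Mgat4b in every mouse. The median log2 level stayed within the spread between mice with those pseudocounts, scaling by total reads and genes at 0 left out. No other scaling was run for the pairs, and no alternative for the remaining counts. The count at 10 or more in every mouse ran from 36 at a threshold of 20 to 49 at a threshold of 5. Leaving out 1 mouse at a time changed more: members at 0 in every remaining mouse numbered 5 to 11 (11 without mouse 1 and 8 without mouse 2), members past 4-fold 51 to 57, and pairs of 1 direction 10 to 14. Members at 10 or more in every remaining mouse numbered 45 to 53, and those at 1000 or more 11 to 14. Of the ratio alternatives, 132 stayed within the SD over mice and 1 did not. Mgat4a/Mgat4b was 3.32 without division by length, a shift fixed by their exon lengths of 12.9 and 2.72 kb. With 3 mice, leaving out 1 cannot move a mean ratio past its SD, so those settings had no other outcome. Among pairs of mixed direction the mean could still change sign, as for Alg13/Alg14 from 1.04 to -2.60 without mouse 1. Over fewer mice, the counts at 10, at 1000, at 0 and of pairs of 1 direction can only stay or rise. The direction of change in those counts was thus fixed in advance. The fold of a given gene can only stay or fall. Any part of single mice in the size of these changes was not tested. No paired analysis was possible because there is a single group. The planned comparison of protein features was not run. With 3 mice, large differences between single libraries cannot be told apart from differences between animals.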
